A study of Homo sapiens with 6 samples.

Results

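Adenylate cyclases are the enzymes that make cyclic AMP from ATP, and the genes described here are ADCY1, ADCY3, ADCY4, ADCY5, ADCY6, ADCY7, ADCY9 and ADCY10. They are the 8 genes of these symbols among the 20289 genes of a deposited count table. The members were chosen by their counts in knockout against wild-type libraries of this table, so those differences are given below as a description and carry no p-value. Poly(A) RNA had been sequenced from Huh7, a line grown from a human liver cancer, to look for genes controlled by UBE2S. This enzyme extends ubiquitin chains for the anaphase-promoting complex. The groups were 3 libraries of wild-type cells (WT) and 3 of UBE2S knockout cells (UBE2S-KO), with no treatment named for either. The sources used here do not give how the knockout was made, how many clones it represents or whether replicates were separate cultures. The p-values therefore set the group difference against the spread between these libraries, part or all of which may be technical. They cannot speak for loss of UBE2S beyond these libraries.

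The membrane-bound adenylate cyclases sit at the plasma membrane, where the stimulatory G protein Gs switches them on after a hormone binds its receptor. ADCY1, ADCY3 and ADCY8 are also stimulated by calcium-bound calmodulin, ADCY2, ADCY4 and ADCY7 by G protein beta-gamma subunits, and ADCY5 and ADCY6 are inhibited by the inhibitory G protein Gi and by calcium. ADCY9 responds little to forskolin, the plant compound that activates the other membrane forms, and ADCY10 is the soluble form, which is switched on by bicarbonate and calcium. Cyclic AMP activates protein kinase A, which phosphorylates the transcription factor CREB, and phosphodiesterases break it down. In hepatocytes this route carries the glucagon signal to genes of glucose production.

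From RefSeq (GRCh38.p14), 9 promoter windows, the 250 bases before an annotated start, were used for 6 of the 8 members. Those of ADCY6 and ADCY9 were not analysed here. They were searched on both strands for the CREB site TGACGTCA, its shorter form TGACG, which lies inside it, and the GC box GGGCGG. TGACGTCA was in 1.65% of 35116 windows of that length across the genome, TGACG in 21.2% and GGGCGG in 42.6%. None of the 9 windows held TGACGTCA. TGACG occurred in both windows of ADCY1 at the same place, chr7:45574123-45574127, and in the second window of ADCY3, inside an exon. GGGCGG occurred 9 and 2 times in the windows of ADCY3, 3 times in the second of ADCY1, 2 times in the first of ADCY5 and in no other. A match is a description of these letters and not a measured binding site.

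The stretches printed here belong to the 3 members with the largest differences between the groups and to ADCY1, which holds the only match to TGACG outside an exon. Parts of a window inside annotated exons are left out, and capitals mark TGACG, on either strand. The ADCY5 stretch lies before its second start at chr3:123416343-123416592 on the minus strand, within the gene's span and outside exons, in a window of 50.8% GC. The first ADCY5 window had 74.8% GC and lay wholly in an annotated exon. The ADCY7 stretch is chr16:50266301-50266515 on the plus strand, within the gene's span, in a window of 59.6% GC. The ADCY10 stretch is chr1:167914216-167914384 on the minus strand, just before the gene, in a window of 52.4% GC. The ADCY1 stretch is chr7:45573890-45574139 on the plus strand, before its first start, in a window of 58.4% GC. The median over all windows was 58.0% GC.
ADCY5: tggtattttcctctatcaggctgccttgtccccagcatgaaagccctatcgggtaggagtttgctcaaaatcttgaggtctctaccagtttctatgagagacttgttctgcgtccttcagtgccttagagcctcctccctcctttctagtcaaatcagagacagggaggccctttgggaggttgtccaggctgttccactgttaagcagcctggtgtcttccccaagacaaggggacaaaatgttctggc
ADCY7: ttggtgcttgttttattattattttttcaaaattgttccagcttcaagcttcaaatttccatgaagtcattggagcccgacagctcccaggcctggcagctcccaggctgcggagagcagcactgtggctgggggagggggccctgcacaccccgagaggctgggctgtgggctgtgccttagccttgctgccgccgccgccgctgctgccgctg
ADCY10: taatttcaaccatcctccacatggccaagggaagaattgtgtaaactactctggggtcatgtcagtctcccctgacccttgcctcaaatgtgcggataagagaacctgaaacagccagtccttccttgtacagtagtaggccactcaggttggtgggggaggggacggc
ADCY1: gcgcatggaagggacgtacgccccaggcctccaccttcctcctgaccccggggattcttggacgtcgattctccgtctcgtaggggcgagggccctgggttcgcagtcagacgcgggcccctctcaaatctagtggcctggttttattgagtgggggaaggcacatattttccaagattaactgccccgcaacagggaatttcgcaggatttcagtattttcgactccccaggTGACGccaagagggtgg

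The libraries held 21840499 to 27910396 estimated counts each. UBE2S itself had 6332, 5129 and 6068 counts in wild-type libraries and 1046, 1062 and 1147 in knockout libraries. Its level fell from 224 ± 9.37 to 45.7 ± 1.70 CPM (mean ± SD, n = 3 each). The log2 fold change was -2.29 (SE 0.04), with an edgeR adjusted p of 1.6e-12. CPM are counts relative to the TMM-scaled library total, the usual unit of edgeR. The groups differed at many genes: of 13265 genes with enough counts to test, 7975 passed an edgeR adjusted p of 0.05 (60.1%), 3903 of them higher in the knockout (29.4%) and 4072 lower (30.7%). The CPM of the groups did not overlap for 8736 tested genes (65.9%).

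Of the 8 members, 6 had enough counts to test: ADCY3, ADCY5, ADCY6, ADCY7, ADCY9 and ADCY10. Against the 60.1% of all tested genes, 5 of these 6 passed the same threshold. ADCY3, ADCY5 and ADCY7 were higher in the knockout, where 29.4% of tested genes were called higher. ADCY9 and ADCY10 were lower, where 30.7% of tested genes were called lower. For 4 of the 6 (ADCY5, ADCY7, ADCY9 and ADCY10) the CPM of the groups did not overlap, beside 65.9% of all tested genes. The median log2 fold change was 0.27 for the 6 members and -0.0006 for all tested genes. Since these differences chose the members, nothing further is read from the counts.

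**Figure D1:**
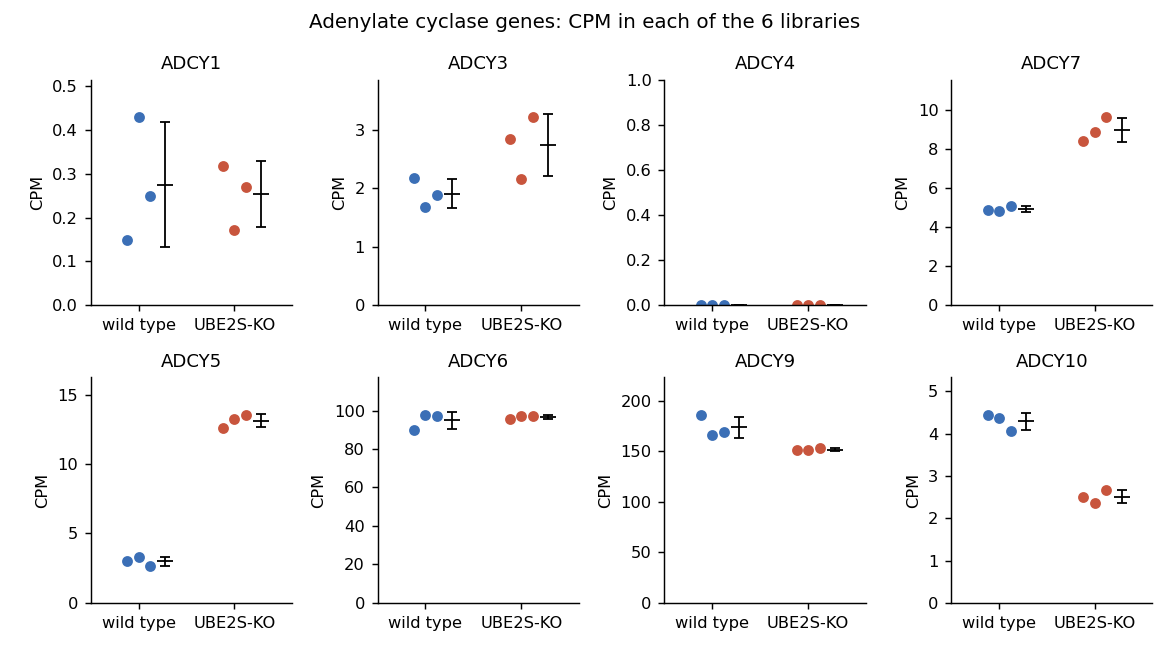
CPM of the 8 adenylate cyclase genes in each library, with points for the 3 wild-type and 3 UBE2S-KO libraries, a bar with whiskers for the mean ± SD of each group, and an axis from 0 in every panel. The knockout points of ADCY5 and ADCY7 lie above all wild-type points, those of ADCY9 and ADCY10 lie below them, and ADCY4 is at 0 in all 6 libraries.

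ADCY5 and ADCY6 encode the membrane cyclases that Gi and calcium inhibit. ADCY5 (ENSG00000173175, minus strand of chromosome 3, 123282296 to 123449758 in GRCh38) had 81, 77 and 75 counts in the wild-type libraries and 277, 309 and 351 in the knockout libraries. These gave 2.995, 3.30 and 2.68 CPM against 12.6, 13.2 and 13.5 CPM. Every knockout library was far above every wild-type library, and the knockout libraries lay close together. The means were 2.99 ± 0.314 and 13.1 ± 0.475 CPM (n = 3 each), 4.41-fold higher in the knockout, with a log2 fold change of 2.14 (SE 0.10). This was the largest difference in the family.

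ADCY6 (ENSG00000174233, minus strand of chromosome 12, 48766194 to 48789037), the close relative of ADCY5, had 2424, 2277 and 2728 counts in wild-type libraries and 2100, 2269 and 2522 in knockout libraries. On the CPM scale these were 89.6, 97.7 and 97.3 against 95.5, 97.0 and 97.2. Wild-type replicate 1 was the lowest of the 6, and the other 5 libraries lay within a narrow range, so the groups overlapped. The means were 94.9 ± 4.53 and 96.6 ± 0.943 CPM, and the log2 fold change was 0.03 (SE 0.04). Without wild-type replicate 1 it was -0.01. ADCY6 was the tested member that did not pass the threshold.

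ADCY7 (ENSG00000121281, plus strand of chromosome 16, 50246137 to 50318135), a cyclase that beta-gamma subunits stimulate, had estimated counts of 131.95, 112.99 and 143.2 in wild-type libraries and 185.09, 208.25 and 250.16 in knockout libraries. Its levels were 4.88, 4.85 and 5.11 CPM against 8.42, 8.90 and 9.64 CPM. The knockout libraries were all higher, with more spread among them than among the wild-type libraries. The means were 4.94 ± 0.142 and 8.99 ± 0.618 CPM, 1.82-fold higher, with a log2 fold change of 0.86 (SE 0.09). ADCY4 (ENSG00000129467, minus strand of chromosome 14, 24318349 to 24335093), of the same class, had 0 counts in all 6 libraries. Counting error alone then allows a level of up to 0.0383 CPM for wild type and 0.0421 CPM for the knockout, the level of 3 counts over each group.

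Among the calmodulin-stimulated cyclases, ADCY3 (ENSG00000138031, minus strand of chromosome 2, 24819169 to 24919839) had estimated counts of 58.69, 39.17 and 52.81 in wild-type libraries and 62.5, 50.61 and 83.43 in knockout libraries. Its levels were 2.17, 1.68 and 1.88 CPM against 2.84, 2.16 and 3.22 CPM. Knockout replicate 2 lay just below wild-type replicate 1, so the groups overlapped. The means were 1.91 ± 0.246 and 2.74 ± 0.534 CPM, 1.43-fold higher, with a log2 fold change of 0.51 (SE 0.18). ADCY3 passed the threshold with edgeR but not with DESeq2, nor without wild-type replicate 2 (0.43), wild-type replicate 3 (0.50), knockout replicate 1 (0.49) or knockout replicate 3 (0.37).

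ADCY1 (ENSG00000164742, plus strand of chromosome 7, 45574140 to 45723116), best known from neurons, had 4, 10 and 7 counts in wild-type libraries and 7, 4 and 7 in knockout libraries. It stayed below the filter on low counts, at 0.275 ± 0.142 and 0.253 ± 0.0751 CPM, and the groups overlapped. The ratio of the summed counts, 18 to 21 and corrected for library size, was 0.942 (exact binomial 95% interval 0.473 to 1.86, counting error only). At this depth the counts are compatible with any ratio within that interval. The 2 family genes outside the member list, ADCY2 and ADCY8, had 0 counts in all 6 libraries.

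ADCY9 (ENSG00000162104, minus strand of chromosome 16, 3953387 to 4116185) had 5023, 3879 and 4734 counts in wild-type libraries and 3316, 3527 and 3978 in knockout libraries. Its levels were 186, 166 and 169 CPM against 151, 151 and 153 CPM. Wild-type replicate 1 was the highest, and all knockout libraries were below all wild-type libraries. The means were 174 ± 10.5 and 152 ± 1.48 CPM, a ratio of 0.873 and a log2 fold change of -0.20 (SE 0.04). Without wild-type replicate 1 it was -0.15.

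ADCY10 (ENSG00000143199, minus strand of chromosome 1, 167809388 to 167914215), the soluble cyclase, had 120, 102 and 114 counts in wild-type libraries and 55, 55 and 69 in knockout libraries. Its levels were 4.44, 4.37 and 4.07 CPM against 2.50, 2.35 and 2.66 CPM. The groups were well apart, and each was tight. The means were 4.29 ± 0.199 and 2.50 ± 0.154 CPM, a ratio of 0.585 and a log2 fold change of -0.77 (SE 0.13).

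To compare the genes with each other, counts were divided by the exon length of each gene and brought to an equal sum in every library, the unit known as TPM. On this scale ADCY9 and ADCY6 made up most adenylate cyclase mRNA in Huh7 cells. In wild type ADCY9 was at 63.2 ± 1.75 and ADCY6 at 42.6 ± 3.52 TPM. Then came ADCY10 at 2.64 ± 0.0792, ADCY7 at 2.16 ± 0.126, ADCY5 at 1.27 ± 0.134, ADCY3 at 1.19 ± 0.119 and ADCY1 at 0.0759 ± 0.0403 TPM, with ADCY4 at 0. Among 16514 detected genes, ADCY9 stood at percentile 83.6 and ADCY6 at 76.0 of the wild-type levels per length, while ADCY10, ADCY7, ADCY5 and ADCY3 stood between 26.7 and 32.1, and ADCY1 at 10.6. ADCY5 and ADCY3 overlapped in wild type, and the other neighbours in that order did not. With the length of the longest transcript in place of all exons, ADCY10 (2.34 to 2.48 TPM) and ADCY7 (2.16 to 2.39 TPM) overlapped as well.

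In the knockout the order below ADCY9 and ADCY6 was another. ADCY9 was at 55.6 ± 0.585 and ADCY6 at 43.6 ± 0.259 TPM, followed by ADCY5 at 5.61 ± 0.184, ADCY7 at 3.95 ± 0.263, ADCY3 at 1.72 ± 0.338, ADCY10 at 1.55 ± 0.0985 and ADCY1 at 0.0696 ± 0.0210 TPM. ADCY5 moved from the fifth place to the third and ADCY10 from the third to the sixth. ADCY3 (1.35 to 2.01 TPM) and ADCY10 (1.45 to 1.64 TPM) overlapped there. The longest-transcript length gave the same order in both groups.

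**Figure D2:**
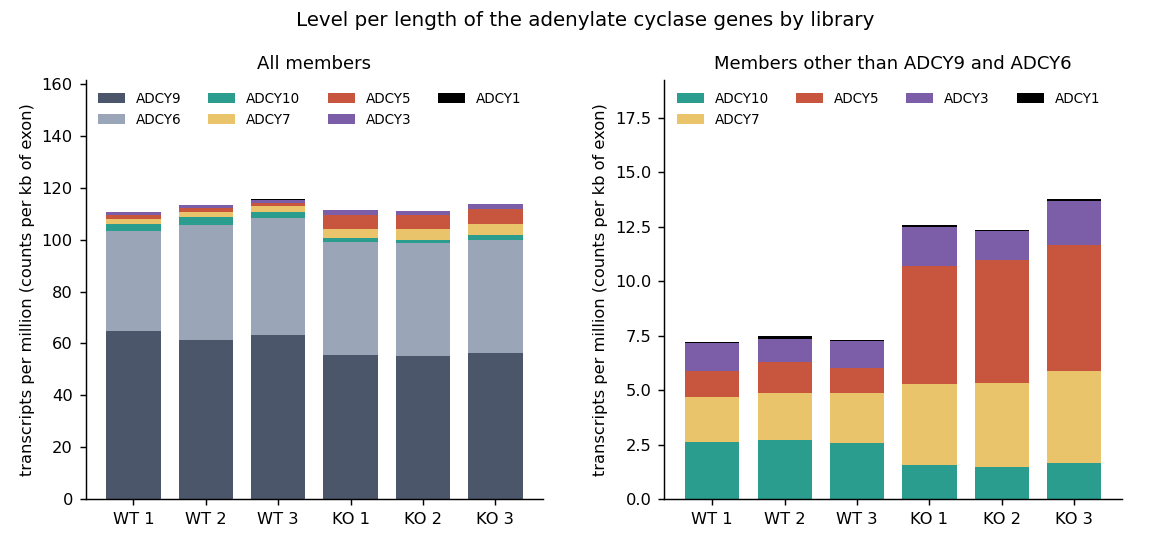
Level per exon length (TPM) of the adenylate cyclase genes in each library, stacked by gene, for all members on the left and without ADCY9 and ADCY6 on the right. The summed height on the left runs from 110.71 to 115.49 TPM in all 6 libraries, while on the right the ADCY5 block is 1.27 ± 0.134 TPM in wild type and 5.61 ± 0.184 TPM in the knockout.

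The summed level of the family overlapped between the groups although its makeup differed. It was 110.71, 113.3 and 115.49 TPM in wild type and 111.48, 110.94 and 113.78 TPM in the knockout, with means of 113 ± 2.39 and 112 ± 1.51 TPM. ADCY9 and ADCY6 together held 93.5 ± 0.136% of the family sum in wild type and 88.5 ± 0.511% in the knockout. Shares and ratios of members come from the same counts that chose the members, so they are a description and no further result. ADCY9 alone went from 55.9% to 49.6% and ADCY6 from 37.6% to 38.9%. The wild-type libraries had 58.6%, 54.2% and 54.8% for ADCY9, the highest in replicate 1. The share of ADCY5 was 1.12% and 5.01%, that of ADCY7 1.91% and 3.53%, that of ADCY3 1.05% and 1.53%, and that of ADCY10 2.33% and 1.38%. By class, the Gi- and calcium-inhibited pair held 38.8 ± 2.45% in wild type and 43.9 ± 0.388% in the knockout.

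Ratios of members within a library do not depend on how the libraries were scaled. The ratio of ADCY5 to ADCY10, per length, was 0.467, 0.522 and 0.455 in wild-type libraries and 3.48, 3.89 and 3.52 in knockout libraries. ADCY10 was thus the higher of the pair in every wild-type library and ADCY5 in every knockout library. ADCY6 exceeded ADCY5 by 33.7 ± 4.04 times in wild type and 7.78 ± 0.210 times in the knockout. The ratio of ADCY7 to ADCY10 was 0.821 ± 0.0627 and 2.56 ± 0.151, and that of ADCY9 to ADCY6 was 1.49 ± 0.166 and 1.28 ± 0.0112. For ADCY9 to ADCY6 the wild-type mean was raised by replicate 1: the libraries had 1.68, 1.38 and 1.41. The knockout libraries had 1.28, 1.26 and 1.28.

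Members were also set beside the genes around them on the chromosome. For each tested member, the 25 tested genes on each side were taken. The 50 neighbours of ADCY5, over 7.91 Mb, had a median log2 fold change of -0.02, 8 were called higher and 14 lower, and none had a change as large as that of ADCY5 (2.14). Around ADCY7 the median was -0.08 over 25.7 Mb, and 6 of 50 genes had a change at least as large in size. The neighbours of ADCY10 had the lowest median of the 6 sets, -0.19 over 10.6 Mb, with 25 called lower and 4 higher. Over all tested genes 30.7% were called lower and 29.4% higher. Of the 50 neighbours, 12 were called higher and 17 lower around ADCY7, and 18 and 11 around ADCY3. Around ADCY6 these counts were 20 and 9, and around ADCY9 they were 13 and 9. ADCY10 was 0.58 below that median on the log2 scale, and 4 of its neighbours changed by at least as much. ADCY3 was 0.43 above its neighbours' median of 0.08, and 9 of the 50 changed by at least as much. For ADCY9 the neighbours' median was -0.004 and for ADCY6 it was 0.10, and 21 and 45 of 50 changed by at least as much as the member. The part of such regional shifts in the members' values was not tested.

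**Figure D3:**
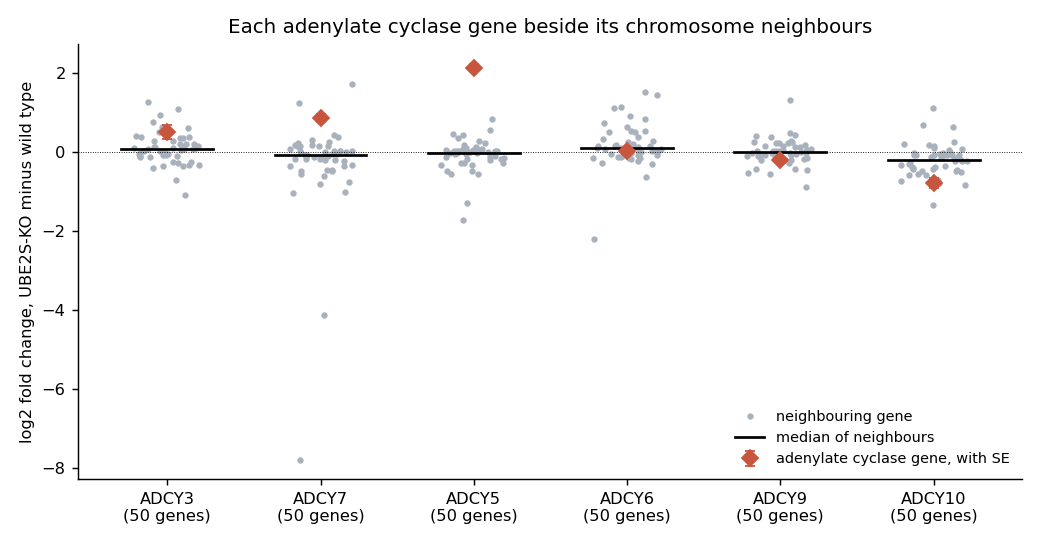
Log2 fold change (UBE2S-KO minus wild type) of the 6 tested members with their SE (diamonds), of the 50 tested genes nearest to each on its chromosome (dots) and the median of those (lines). ADCY5 at 2.14 lies above all of its 50 neighbours, while ADCY10 at -0.77 lies in a group of genes whose median is -0.19.

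Overlap with other genes bears on how surely reads were assigned, because the strand setting of the counting is not given. Exons of ADCY7 overlap those of BRD7, a bromodomain protein gene on the opposite strand, over 3593 bases, and 37.9% of the 50-base words of ADCY7 transcripts also occur in transcripts of other genes. BRD7 was higher in the knockout, at 65.4 ± 3.75 against 73.9 ± 0.876 CPM (log2 fold change 0.17, SE 0.04, edgeR adjusted p = 0.0037). Exons of ADCY3 overlap 1488 bases of CENPO, a centromere protein gene on the opposite strand, and 21.8% of the words of ADCY3 are shared. CENPO was also higher, at 66.4 ± 2.48 against 76.8 ± 0.756 CPM (0.21, SE 0.04, edgeR adjusted p = 0.00037). ADCY3 and ADCY7 were the members whose estimated counts were not whole numbers, so their values are less certain than those of the others. The part of BRD7 and CENPO reads in them was not tested. Shared words made up 3.82% for ADCY5, 0.248% for ADCY9 and 0% for ADCY10, and no 50-base word was shared between members.

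The genes whose levels followed ADCY5 and ADCY9 most closely over the 6 libraries were sought among 10550 genes, by the root mean square difference of the centred log2 CPM. Nearest to ADCY5 were PCSK1N (0.0612), FLNC (0.0676) and FGD3 (0.0959), with log2 fold changes of 2.034, 1.999 and 1.932. PCSK1N encodes an inhibitor of a prohormone convertase, and FLNC encodes the actin crosslinker filamin C. Nearest to ADCY9 were AATF (0.0104), TOP1 (0.0121), which encodes DNA topoisomerase I, and GIT2 (0.0139), with log2 fold changes of -0.19, -0.20 and -0.21. The 6 libraries form 2 groups, so genes with a group difference of like size come out near each other by this measure.

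Genes that act before and after the cyclases changed in both directions. Of 203 genes in 12 lists around the cyclic AMP pathway, 121 were tested. By edgeR at an adjusted p of 0.05, 45 rose and 35 fell, or 66.1% beside 60.1% of all tested genes. The median log2 fold change of the 121 genes was 0.08. These totals include 2 lists that act neither before nor after the cyclases. One holds ADCY2 and ADCY8, which were not tested. The other holds 8 guanylate cyclases, which make cyclic GMP, with 3 tested, 1 higher and 2 lower. The called genes described next had groups that did not overlap unless stated.

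**Figure D4:**
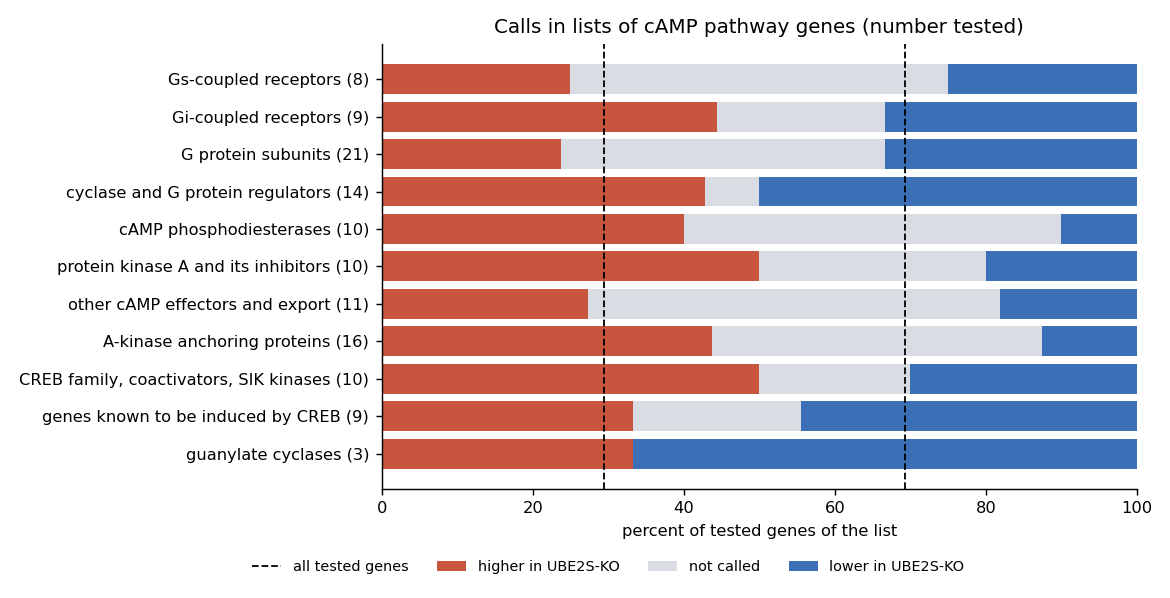
Percent of the tested genes of each list that were called higher, not called or called lower in UBE2S-KO (edgeR adjusted p of 0.05). The number tested is in brackets. The lists are those of the cyclic AMP pathway and that of the guanylate cyclases, which make cyclic GMP. Dashed lines mark the shares over all tested genes, 29.4% higher and 30.7% lower.

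Receptors that couple to Gs were mostly at low counts: 8 of 36 were tested, 2 rose and 2 fell. The adenosine receptor gene ADORA2A fell from 11 to 7.08 CPM, which is -0.63 in log2 fold change (SE 0.09, edgeR adjusted p = 4e-05). GPR3, an orphan receptor gene (0.80, edgeR adjusted p = 0.033), and PTGER4, which encodes a prostaglandin E2 receptor (0.15, edgeR adjusted p = 0.03), rose, and ADORA2B fell (-0.60, edgeR adjusted p = 0.025). These 3 were not called by DESeq2 (adjusted p = 0.097, 0.14 and 0.15). Each also lost the call without 4 or 5 of the single libraries, with edgeR adjusted p of up to 0.14 for GPR3, 0.12 for PTGER4 and 0.088 for ADORA2B. GCGR, the glucagon receptor gene, chosen after its values were seen, had 4, 2 and 5 counts in wild-type libraries and 1, 0 and 0 in knockout libraries, too few to test.

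Of the Gi-coupled receptors 9 of 30 were tested, of which 4 rose and 3 fell. CXCR4, the receptor of the chemokine CXCL12, rose from 2.76 to 8.90 CPM (1.70, SE 0.12, edgeR adjusted p = 1.5e-07), and the adrenergic receptor gene ADRA2C rose by 0.44 (SE 0.06, edgeR adjusted p = 7e-05). The somatostatin receptor gene SSTR2 fell from 31.5 to 12 CPM (-1.40, SE 0.06, edgeR adjusted p = 2.1e-09), and CNR1, a cannabinoid receptor gene, changed by -0.91 (SE 0.17, edgeR adjusted p = 0.00045).

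G protein subunits were nearly all measured, 21 of 26, and 5 rose while 7 fell. GNAS, the alpha subunit of Gs that activates the cyclases, rose from 845 to 957 CPM (0.18, SE 0.04, edgeR adjusted p = 0.00086), and GNAL, its olfactory relative, by 0.42 (SE 0.06, edgeR adjusted p = 4.1e-05). GNA11, an alpha subunit of the Gq class, fell from 132 to 102 CPM (-0.37, SE 0.03, edgeR adjusted p = 9.6e-07), and the gamma subunit gene GNG4 had -0.74 (SE 0.10, edgeR adjusted p = 2.8e-05). Of 16 regulators of cyclases and G proteins 14 were tested, 6 rose and 7 fell. GPSM1, which binds Gi alpha subunits, rose from 5.21 to 16.3 CPM (1.64, SE 0.09, edgeR adjusted p = 8.6e-09). CAP1, a cyclase-associated actin regulator, fell from 333 to 214 CPM (-0.64, SE 0.03, edgeR adjusted p = 1.7e-09), and RGS2, which shortens G protein signals, from 12 to 7.95 CPM (-0.60, SE 0.09, edgeR adjusted p = 6.1e-05).

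Among the phosphodiesterases that degrade cyclic AMP, 10 of 16 were tested, 4 rose and 1 fell. PDE4D rose from 26.4 to 42.9 CPM (0.70, SE 0.05, edgeR adjusted p = 6.2e-08) and PDE4A by 0.38 (SE 0.10, edgeR adjusted p = 0.005). PDE1A, named after its values were seen, was called higher, at 0.399 against 0.727 CPM (0.87, SE 0.29, edgeR adjusted p = 0.022), but not by DESeq2 (adjusted p = 0.17). It also lost the call without wild-type replicate 1 or 3 or knockout replicate 2 or 3 (edgeR adjusted p of 0.056 to 0.074). PDE3A (0.10, edgeR adjusted p = 0.032) and PDE3B (-0.11, edgeR adjusted p = 0.016) were called by edgeR but not by DESeq2 (adjusted p = 0.10 and 0.077). PDE3A also lost the call without wild-type replicate 2, knockout replicate 1 or knockout replicate 2 (up to 0.12 by edgeR), and PDE3B without knockout replicate 2 or 3 (up to 0.084).

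Protein kinase A, the main target of cyclic AMP, was listed with its inhibitors, and 10 of these 11 genes were tested, 5 higher and 2 lower. Of the 7 kinase genes tested, the related kinase gene PRKX included, PRKACA, PRKACB and PRKAR1B were higher and PRKX and PRKAR2B lower. Of the 3 inhibitor genes, PKIA and PKIB were higher. PKIB rose from 22.6 to 33.1 CPM (0.55, SE 0.05, edgeR adjusted p = 1.7e-06) and the catalytic subunit gene PRKACB by 0.34 (SE 0.06, edgeR adjusted p = 0.00025). PRKACA (0.14, edgeR adjusted p = 0.029), named after its values were seen, had groups that overlapped and lost the call without wild-type replicate 2 or 3 or knockout replicate 1 or 3 (edgeR adjusted p of 0.059 to 0.15). PKIA (0.21, edgeR adjusted p = 0.016) lost it with DESeq2 (adjusted p = 0.09) and without knockout replicate 1 (0.072 by edgeR). The regulatory subunit gene PRKAR2B fell from 2.52 to 0.536 CPM (-2.24, SE 0.24, edgeR adjusted p = 5.7e-06). Of 15 other effectors and exporters 11 were tested, 3 rose and 2 fell. RAPGEF3, an exchange factor that cyclic AMP binds directly, rose from 0.889 to 2.54 CPM (1.52, SE 0.21, edgeR adjusted p = 4.8e-05), and ABCC5, a cyclic nucleotide exporter, had -0.45 (SE 0.04, edgeR adjusted p = 7.4e-07). A-kinase anchoring proteins, which tether protein kinase A and some cyclases, had 16 of 18 tested, 7 higher and 2 lower, with a median of 0.26. AKAP12 rose from 43.9 to 63.6 CPM (0.53, SE 0.04, edgeR adjusted p = 3.7e-07), and AKAP5 had -0.60 (SE 0.11, edgeR adjusted p = 0.00046).

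The list of CREB genes, their coactivators and the SIK kinases, which restrain the CRTC coactivators, had 10 of 11 tested, 5 higher and 3 lower. Without the SIK kinases it was 8 of 8 tested, 4 higher (CREM, CRTC1, CRTC3 and CREBBP) and 2 lower (CREB1 and EP300). SIK2, named after its values were seen, was higher (0.13, edgeR adjusted p = 0.0096) and SIK3 lower (-0.16, edgeR adjusted p = 0.0051). The coactivator gene CRTC1 rose from 24.6 to 39.0 CPM (0.66, SE 0.06, edgeR adjusted p = 1.2e-06) and CREM from 27.3 to 38.8 CPM (0.51, SE 0.07, edgeR adjusted p = 3.7e-05), while EP300, an acetyltransferase gene, had -0.37 (SE 0.04, edgeR adjusted p = 1.1e-05). CRTC3 (0.16) and CREB1 (-0.14) lost the call with DESeq2 (adjusted p = 0.054 and 0.051), CRTC3 also without wild-type replicate 3 or knockout replicate 2 (edgeR adjusted p of up to 0.072) and CREB1 without knockout replicate 3 (0.059). CREBBP (0.13), whose groups overlapped, lost it when any library but wild-type replicate 1 was left out (edgeR adjusted p of up to 0.16). Of 14 genes known to be induced by CREB, 9 were tested, 3 rose and 4 fell, with a median of -0.38. DUSP1, a phosphatase of MAP kinases, rose from 62.1 to 103 CPM (0.72, SE 0.04, edgeR adjusted p = 5.1e-09). BDNF rose from 1.54 to 2.63 CPM (0.77, SE 0.16, edgeR adjusted p = 0.00097). PER1 rose by 0.19 (edgeR adjusted p = 0.01) but was not called by DESeq2 (adjusted p = 0.075). TAT, the liver tyrosine aminotransferase gene, fell from 5.20 to 2.73 CPM (-0.93, SE 0.14, edgeR adjusted p = 7.2e-05) and PPARGC1A, a coactivator of fasting genes, from 5.63 to 3.59 CPM (-0.64, SE 0.12, edgeR adjusted p = 0.00042). FOS (-0.91, edgeR adjusted p = 0.01) lost the call without wild-type replicate 2 (edgeR adjusted p = 0.051) or knockout replicate 1 (0.052). PCK1 and G6PC1, enzymes of glucose production chosen after their values were seen, were too low to test, with 4, 5 and 4 against 1, 0 and 0 counts and with 6, 2 and 3 against 3, 4 and 3 counts. Of the guanylate cyclases, which make cyclic GMP with a related catalytic domain, 3 of 8 were tested. NPR2 rose from 44.9 to 69.8 CPM (0.63, SE 0.04, edgeR adjusted p = 9.7e-08), GUCY1A2 fell from 8.75 to 1.89 CPM (-2.22, SE 0.13, edgeR adjusted p = 3.1e-08) and GUCY2C had -1.27 (SE 0.08, edgeR adjusted p = 5e-08).

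**Figure D5:**
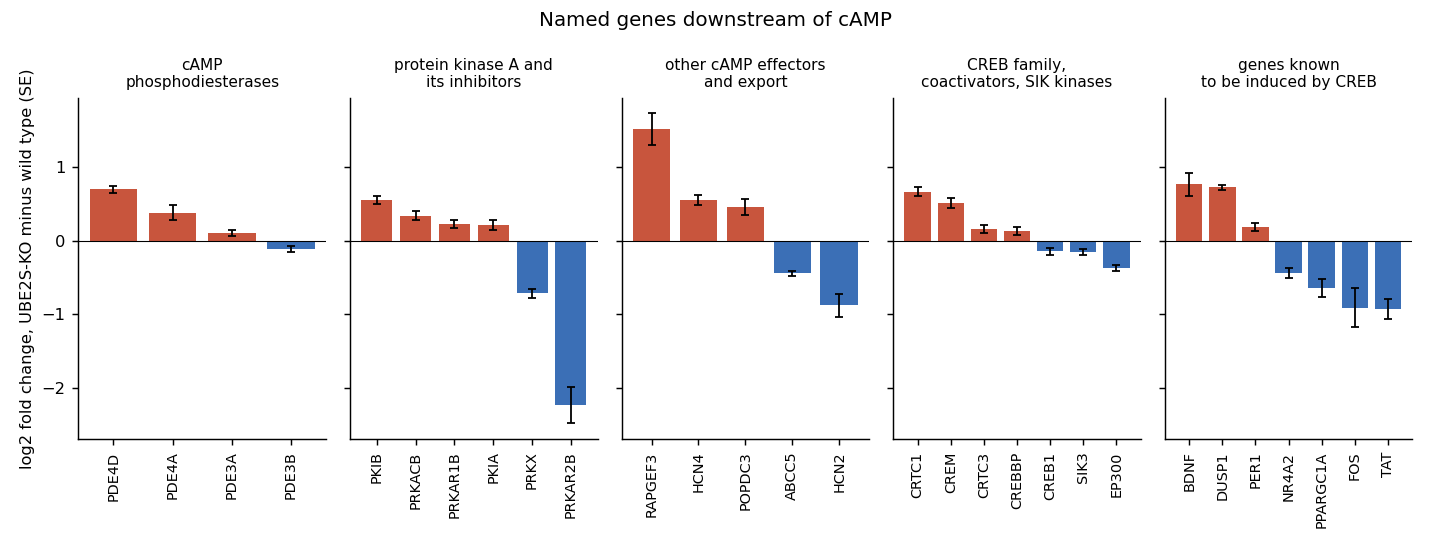
Log2 fold change (UBE2S-KO minus wild type, bars, with SE) of genes that break down, sense or answer cyclic AMP, by list. Shown are up to 4 called genes per direction with the largest changes at a mean of at least 1 CPM, so PDE1A is left out. Bars stand on both sides of 0 in every list, from -2.24 for PRKAR2B to 1.52 for RAPGEF3.

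Markers of the labelled and of other cell types were set beside these values. The shares of all tested genes called were 29.4% higher and 30.7% lower. All 9 hepatocyte markers were tested, with 2 higher and 7 lower, and their summed level was 18741 to 19329 CPM for wild type and 17033 to 17255 CPM for UBE2S-KO. Of 7 fibroblast and stellate cell markers 4 were tested, 3 higher and 1 lower, with sums of 12.5 to 12.8 and 20.5 to 21.9 CPM. Of 5 endothelial markers 1 was tested and it was lower (sums 5.51 to 6.82 and 2.27 to 2.52 CPM), with KDR at 0. Of 6 immune markers 3 were tested, all lower (sums 290 to 313 and 179 to 182 CPM), with CD3E at 0. Of 6 cholangiocyte markers 5 were tested, 1 higher and 2 lower (sums 330 to 358 and 296 to 301 CPM), with KRT7 at 1 count in all. The higher one was SPP1, at 2.91 against 17.9 CPM. The lower ones were SOX9, at 215 against 161 CPM, and EPCAM, at 21.7 against 17.1 CPM. Abundant genes weigh most in such sums, as LYZ does in the immune sum, at 280 against 168 CPM. The cultures are of 1 line, and the part of these shifts in the adenylate cyclase values was not tested. In such bulk RNA a change in some cells and a smaller change in all cells cannot be told apart.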

How the data were processed

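Poly(A) RNA of 3 wild-type and 3 UBE2S knockout Huh7 libraries was measured, with groups and replicate numbers taken from the sample titles. The authors deposited estimated counts per gene, unnormalized, of which 2 members (ADCY3 and ADCY7) had values that were not whole. The submitters' processing notes name DESeq2, StringTie 1.3.1, HISAT2 and Bowtie2 2.2.8 without saying what each did. Not given in the sources used here are the counting program, annotation, genome build and strand setting. By identifier, 20171 of 20289 genes (99.4%) matched GENCODE 29, which gave GRCh38 positions and exon lengths.

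The counts were rounded, filtered with filterByExpr (minimum count 10), scaled by TMM and tested with edgeR 4.0.16 (R 4.3.3, limma 3.58.1), with quasi-likelihood F tests over all 13265 genes and Benjamini-Hochberg adjustment at 0.05. Alternatives were DESeq2 1.42.0, limma-voom, other scalings and filters, a replicate block and each library left out. The members and the pathway lists were chosen with earlier results of these data known. Named were all members, UBE2S, genes whose exons overlap a member, the 3 genes most like the members with the largest higher and lower change at a mean of at least 5 CPM, and in each list up to 4 called genes per direction with the largest change at a mean of at least 1 CPM; the text gives a choice of these, and says where others were named after their values were seen. Totals of 21840499 to 27910396 counts set the precision.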

Additional observations from a re-analysis of the deposited data

How the results depend on the processing

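Of all genes, 7975 were called; the count was 6747 with DESeq2, 6472 at an adjusted p of 0.01 and 7142 to 8457 with 1 library left out. The labels do not say whether replicate numbers pair the samples. Deviations of same-numbered libraries from their group means had correlations of 0.006, -0.01 and 0.003. Such values show no shared deviation but cannot tell whether those libraries were prepared together. With the number as a replicate block 7913 genes were called, and 44 higher and 36 lower genes of the pathway lists in place of 45 and 35. DESeq2 gave 34 and 31, and single libraries left out gave 36 to 48 and 34 to 37. The log2 fold change of ADCY5 stayed within 2.06 to 2.21 over all alternatives, that of ADCY7 within 0.81 to 0.91, that of ADCY9 within -0.23 to -0.15, that of ADCY10 within -0.82 to -0.73 and that of ADCY3 within 0.37 to 0.65. ADCY6 ran from -0.01 to 0.05. Of 67 called pathway genes followed over the alternatives (those chosen by the naming rule, with PDE1A, PRKACA and SIK2), 16 lost the call under at least 1 (12 with DESeq2, 14 without 1 library and 1, PDE3A, with the block), and 0 of 937 alternative values reversed. Depth limits ADCY1, ADCY4 and the receptor genes that were not tested, and the rounding and read sharing of ADCY3 and ADCY7 add an error that was not measured. Exon overlap with genes outside the count table may add another for ADCY3, ADCY4, ADCY5 and ADCY6. The causes of the lost calls were not tested.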
